A study of Arabidopsis thaliana with 18 samples.

Results

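The 44 genes described here encode the enzymes of glycolysis in Arabidopsis thaliana, isoform by isoform, and were taken by locus from a table of 32833 genes. They cover 11 enzyme steps: 3 hexokinases, 2 glucose-6-phosphate isomerases, 7 ATP-dependent phosphofructokinases (PFK), 4 subunit genes of the pyrophosphate-dependent phosphofructokinase (PFP), 8 aldolases, 2 triose-phosphate isomerases, 5 glyceraldehyde-3-phosphate dehydrogenases (GAPDH), 3 phosphoglycerate kinases, 2 phosphoglycerate mutases, 2 enolases and 6 pyruvate kinases. Of the 44 members, 13 encode plastid enzymes and 31 encode enzymes outside the plastid. All but 1 passed the filter on low values and were tested. The exception was the pyruvate kinase gene AT4G26390, with group means between 0.0233 ± 0.0404 and 0.0967 ± 0.0907 TPM.

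Messenger RNA was measured in leaves of 4-week-old plants that were wild type, phyA-211 or ein3eil1, which makes 3 lines. The phyA-211 line carries a mutation in PHYA, the gene of the far-red light receptor phytochrome A. The ein3eil1 line carries mutations in both EIN3 and EIL1, transcription factors at the head of the ethylene response; its alleles are not given in the labels. The title of every library also carries the word mock, which the labels do not explain. All plants were grown in air, and each line was then left in air or submerged for 6 hours. This gives 6 groups of 3 libraries. Both mutant lines carry their mutation in every cell, so a difference between lines can arise before submergence. The labels do not say whether the 3 libraries of a group came from separate plants, so the p-values below measure only the spread between these libraries. The series title asks about PHYA and the escape from submergence, and the glycolytic genes were read across the same 6 groups.

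Glycolysis splits hexose sugars into pyruvate in the cytosol, with a small net gain of ATP, and plants keep a further set of many of its enzymes in the plastid. In green leaves some plastid isoforms, among them the aldolases FBA1 and FBA2, the phosphoglycerate kinase PGK1 and the triose-phosphate isomerase TIM, work mainly in the Calvin-Benson cycle, which shares these reactions. Under water oxygen is short, respiration slows, and glycolysis coupled to ethanol fermentation becomes a main route to ATP, while ethylene gas is trapped in the tissue and signals through EIN3 and EIL1.

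Values are TPM, a share of each library's transcripts corrected for gene length. A log2 change is a difference of 2 group means of log2(TPM + 1). It understates the true fold of genes with low TPM. A gene is called changed when the limma adjusted p over all 20302 tested genes is under 0.05. A value after ± is the SD over the 3 libraries of a group unless it is marked SE. TPM keeps no read depth, so no counting error is given. Because TPM is a share, the scaling of whole libraries matters: the median change of all tested genes in wild type was -0.32 as deposited, 0.15 after each library was centred on its median and -0.03 after quantile normalization. Each call was therefore made on the values as deposited and checked under both other scalings. A change without a call shows no direction: after median centring 7 of the 11 uncalled members in wild type, 2 of 16 in phyA-211 and 7 of 11 in ein3eil1 had the other sign. In bulk leaf RNA, fewer cells of a type and less RNA per cell cannot be told apart.

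Submerged phyA-211 replicate 1 stood apart from its group. Over all tested genes its correlation with the other submerged phyA-211 libraries was 0.918 and 0.932, below its 0.9596 with a submerged wild-type library, and it held the lowest value of its group in 40 of the 43 tested members. In air, phyA-211 replicate 1 was the lowest of its group in 39 members and wild-type replicate 2 in 36. Replicate 3 of ein3eil1 was the lowest of its group in 28 members in air and in 29 under submergence. The median SD of the members on the log2 scale was 0.474 in submerged phyA-211, against 0.0747 in submerged wild type. Small nuclear RNA genes took 0.0383 ± 0.0148% of TPM in wild-type air and 0.545 ± 0.042% after submergence, 0.0311 ± 0.0056% and 0.483 ± 0.05% in ein3eil1, and 1.24 ± 0.699% and 0.884 ± 0.836% in phyA-211. In air PHYA had 13.2, 11.1 and 10.8 TPM in the wild-type libraries and 1.2, 1.2 and 1.83 in those of phyA-211. After submergence PHYA rose in phyA-211 (log2 change 2.21, limma adjusted p = 1.07e-07) and less in wild type (log2 change 0.92, limma adjusted p = 0.000734). EIN3 averaged 27.5 ± 0.701 TPM in air-grown ein3eil1 and 59.7 ± 3.37 in wild type, and EIL1 16.6 ± 0.448 and 41 ± 2.82. After submergence EIN3 rose in ein3eil1 (log2 change 0.67, limma adjusted p = 0.0457) and was not called in wild type (-0.13). EIL1 fell in ein3eil1 on the deposited values only (log2 change -0.67, limma adjusted p = 0.00141) and rose in wild type (log2 change 0.70, limma adjusted p = 0.00128). The 4 leaf mesophyll markers were high in every library. Their summed level ranged from 35320 to 39430 TPM in wild-type air, 23030 to 41510 in phyA-211 air and 20840 to 21810 in ein3eil1 air, and after submergence from 37270 to 38370, 14890 to 16930 and 8662 to 18600. The 2 seed markers summed to at most 0.0433 ± 0.0513 TPM in a group. The 4 flower markers summed to 27.2 ± 28.8 TPM in ein3eil1 air and to at most 16 ± 14 TPM in any other group. Of the root markers, EXPA7 was listed at 0 in every library, SHV2 and MYB66 did not pass the filter, and PYK10 did. After submergence PYK10 was called lower in wild type (log2 change -2.97, limma adjusted p = 0.00196) but not in phyA-211 (-1.575) or ein3eil1 (0.35). In air its changes against wild type were -1.72 in phyA-211 and -1.84 in ein3eil1, without a call on the deposited values. What these differences between libraries contribute to the results below was not tested, except where a value without a library is given.

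Most of the glycolytic genes were lower in submerged than in air-grown wild-type leaves. Of the 43 tested members 28 fell and 4 rose, where 38.0% of all tested genes fell and 18.9% rose. The median change of the members was -1.01, against -0.32 over all genes. After median centring 24 fell and 9 rose, against 22.3% and 32.2% of all genes. Under all 3 scalings 24 fell and 3 rose, against 21.7% and 18%. The fall took in both compartments: 9 of 13 plastid members and 19 of 30 others fell, with 1 and 3 rises.

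In submerged phyA-211 the members were split. Of the 43, 12 rose and 15 fell, against 27.3% and 23.9% of all tested genes, with a median change of -0.31 against 0.07. All 27 were called under each scaling, as were 24.0% (higher) and 21.9% (lower) of all genes. Without submerged phyA-211 replicate 1 the counts were 18 and 13.

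In submerged ein3eil1 14 members rose and 18 fell, against 17.0% and 47.3% of all tested genes, with a median change of -0.33 against -0.48. Of the 30 members outside the plastid 13 rose and 9 fell, with a median of 0.19. Of the 13 plastid members 1 rose and 9 fell, with a median of -1.05. The plastid falls of PGI1, FBA2, PGK1 and AT1G56190 were not called after median centring, nor was that of PGK outside the plastid. Under all 3 scalings 13 rises and 13 falls were called, against 16.6% and 25.6% of all genes.

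**Figure D1:**
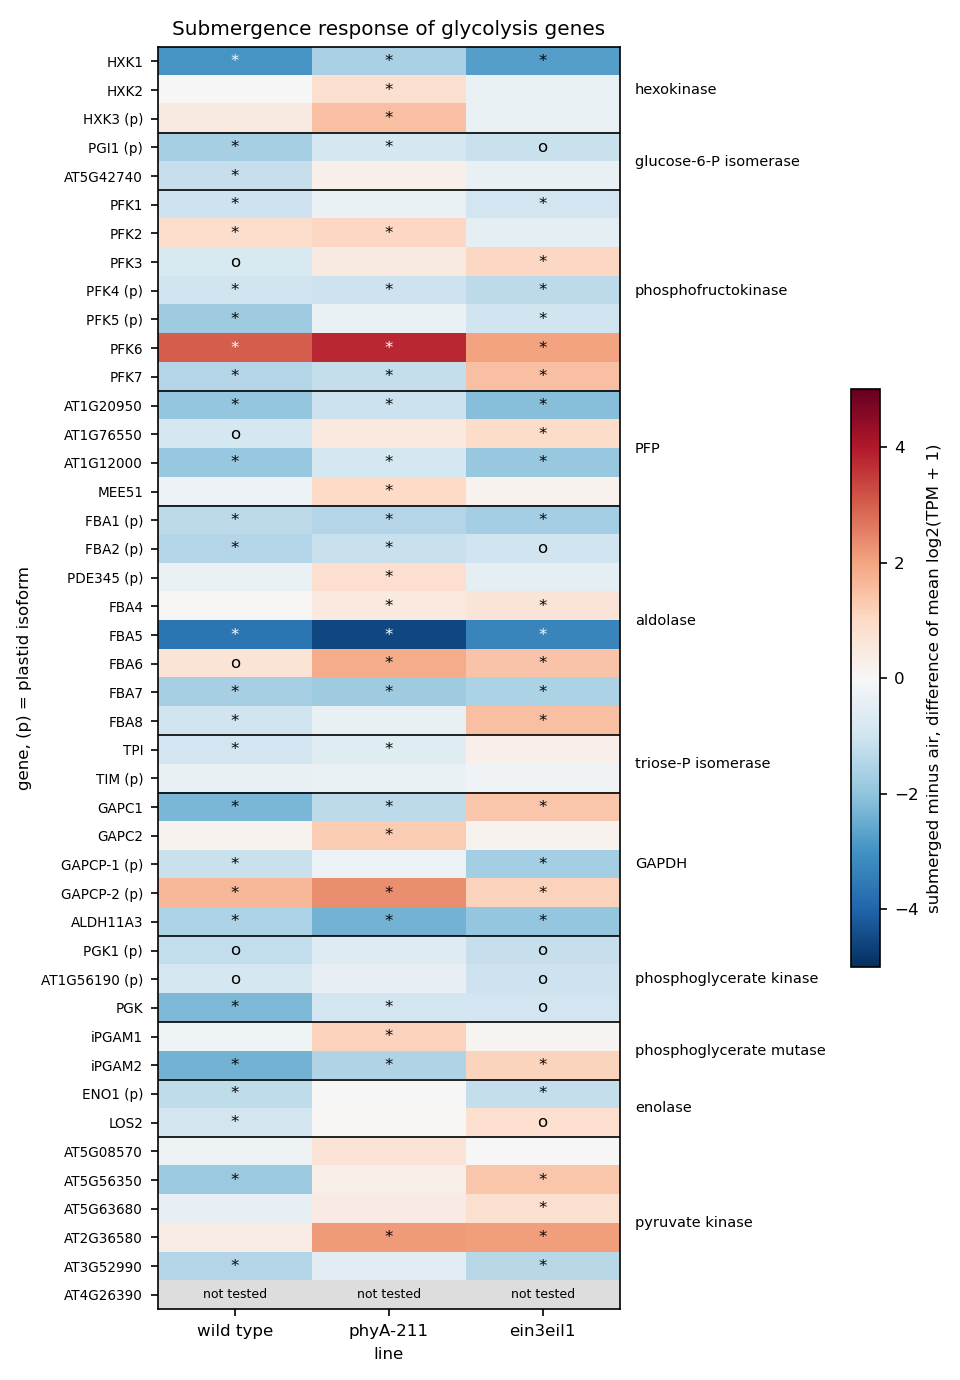
Change after 6 h of submergence for each of the 44 genes (rows, grouped by enzyme step) in wild type, phyA-211 and ein3eil1 (columns), as the difference of mean log2(TPM + 1) between 3 submerged and 3 air libraries. A star marks a call under all 3 scalings, an o a call on the deposited values that was lost under another scaling, and (p) a plastid isoform; blue cells outnumber red ones in wild type, and FBA5 (-3.67) and PFK6 (3.04) are its extremes.

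Hexokinase phosphorylates glucose at the start of the pathway, and HXK1 (AT4G29130) also serves as a glucose sensor. HXK1 stood at 42.2, 28.8 and 36.1 TPM in air and at 3.29, 3.79 and 3.99 TPM after submergence in wild type. All 3 submerged libraries lay far below all 3 air libraries (log2 change -2.95 ± 0.33 SE, limma adjusted p = 2.4e-06). HXK1 in phyA-211 stood at 21, 35.9 and 31.8 TPM in air and at 4.07, 10.4 and 14.4 TPM after submergence (log2 change -1.63, limma adjusted p = 0.000702). In ein3eil1 HXK1 stood at 55.3, 52.4 and 48.7 TPM in air and at 6.78, 10.04 and 4.48 TPM after submergence (log2 change -2.77, limma adjusted p = 3.51e-06). The HXK1 transcript shares 6.93% of its 50-base words with other genes. The groups did not overlap in any line. HXK2 (AT2G19860), the other hexokinase on the mitochondrial surface, was at 18.1, 13.7 and 17.3 TPM in air and at 17, 14.6 and 17.1 TPM after submergence in wild type, where the groups overlapped (log2 change 0.00, limma adjusted p = 0.995). In phyA-211 HXK2 stood at 23, 26.6 and 21.3 TPM in air and at 32, 42.4 and 54.7 TPM after submergence. Every submerged library there was above every air library, and HXK2 rose (log2 change 0.81, limma adjusted p = 0.00315). ein3eil1 leaves had HXK2 at 32.1, 33.2 and 26.5 TPM in air and at 20.6, 32.5 and 20.9 TPM after submergence (log2 change -0.33, limma adjusted p = 0.168). HXK1 therefore went from 68.5 ± 1.32% to 18.6 ± 2.19% of the summed TPM of this pair in wild type. In phyA-211 that share went from 55 ± 6.41% to 17.3 ± 5.25%, and in ein3eil1 from 63.1 ± 1.75% to 22 ± 3.81%. The plastid hexokinase HXK3 was low, with group means from 0.863 ± 0.396 to 4.55 ± 2.28 TPM, both in phyA-211, where it rose (log2 change 1.51, limma adjusted p = 0.000181).

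Glucose-6-phosphate isomerase turns glucose 6-phosphate into fructose 6-phosphate. PGI1 (AT4G24620), its plastid isoform, had the highest mean of the step and stood at 36.5, 24.2 and 30.1 TPM in air and at 8.18, 10.3 and 7.61 TPM after submergence in wild type. The submerged libraries were all below the air libraries (log2 change -1.68, limma adjusted p = 0.000495). In phyA-211 it stood at 18.3, 43.3 and 31.2 TPM in air and at 8.09, 19.3 and 23 TPM after submergence, with groups that overlapped. PGI1 was called lower there (log2 change -0.88, limma adjusted p = 0.0359), but not without phyA-211 air replicate 2 (-0.60, adjusted p = 0.166), air replicate 3 (-0.83, adjusted p = 0.0893) or submerged replicate 1 (-0.45, adjusted p = 0.176). PGI1 in ein3eil1 stood at 56.1, 48.1 and 41.5 TPM in air and at 27.3, 20.03 and 18.5 TPM after submergence and fell (log2 change -1.12, limma adjusted p = 0.00782), though not after median centring (-0.58, adjusted p = 0.0716). The cytosolic isoform AT5G42740 fell in wild type, from 26.6 ± 4.14 to 11.4 ± 0.311 TPM (log2 change -1.15, limma adjusted p = 0.00485). It changed by 0.24 in phyA-211 and -0.37 in ein3eil1, without a call.

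Phosphofructokinase makes the first committed step, the phosphorylation of fructose 6-phosphate with ATP, and its 7 genes moved in different directions. PFK6 (AT4G32840) had the largest rise of all members in wild type and phyA-211. It stood at 3.27, 2.69 and 3.03 TPM in air and at 32.4, 32.8 and 30.4 TPM after submergence in wild type (log2 change 3.04 ± 0.23 SE, limma adjusted p = 4.07e-08). In phyA-211 PFK6 stood at 1.86, 3.97 and 4.61 TPM in air and at 44.6, 62 and 69.8 TPM after submergence (log2 change 3.77, limma adjusted p = 3e-09). ein3eil1 leaves had PFK6 at 6.32, 3.54 and 5.13 TPM in air and at 22.5, 25.1 and 20.4 TPM after submergence (log2 change 2.00, limma adjusted p = 2.68e-06). The submerged libraries were above the air libraries in every line. The PFK6 transcript shares 11.9% of its 50-base words with other genes, most with AT4G32830, and reads there cannot be told apart because the strand of the libraries is not stated. PFK7 (AT5G56630), a cytosolic isoform as PFK6 is, went the other way in 2 of the lines. It stood at 23.2, 18.5 and 23.2 TPM in air and at 8, 7.35 and 6.02 TPM after submergence in wild type and fell (log2 change -1.48, limma adjusted p = 3.22e-05). In phyA-211 it stood at 23.7, 24.4 and 22.8 TPM in air and at 7.08, 10.9 and 11.6 TPM after submergence and fell too (log2 change -1.21, limma adjusted p = 0.000208). PFK7 in ein3eil1 stood at 36.2, 38.6 and 36.7 TPM in air and at 105, 152 and 75.2 TPM after submergence, where it rose (log2 change 1.50, limma adjusted p = 2.14e-05). All 3 submerged ein3eil1 libraries were above every other library of the series for this gene.

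Among the other cytosolic PFK genes, PFK1 (AT4G29220) had the highest mean over all libraries. It stood at 64, 61.5 and 60.8 TPM in air and at 29, 31.4 and 30.1 TPM after submergence in wild type (log2 change -1.02, limma adjusted p = 7.16e-05). In phyA-211 PFK1 stood at 51.2, 59.3 and 54.4 TPM in air and at 31.2, 47.9 and 56.7 TPM after submergence, a change of -0.31 that was not called on the deposited values (adjusted p = 0.117). It was called lower there after median centring (-0.39, limma adjusted p = 0.00312) and after quantile normalization (-0.53, limma adjusted p = 0.00165). ein3eil1 leaves had PFK1 at 78.5, 79.6 and 78.7 TPM in air and at 40.1, 44.7 and 37.4 TPM after submergence (log2 change -0.94, limma adjusted p = 0.000113). PFK1 fell in wild type and ein3eil1, with submerged libraries below all air libraries there, and only phyA-211 had overlapping groups. PFK2 (AT5G47810) was a low gene, at 4.53, 4.56 and 3.87 TPM in air and at 8.25, 7.7 and 10.5 TPM after submergence in wild type, where it rose (log2 change 0.88, limma adjusted p = 0.00267). In phyA-211 it stood at 6.3, 7.11 and 7.35 TPM in air and at 9.61, 16.3 and 21.3 TPM after submergence and rose (log2 change 1.02, limma adjusted p = 0.000899). PFK2 in ein3eil1 stood at 7.72, 6.76 and 5.83 TPM in air and at 4.82, 4.04 and 4.78 TPM after submergence, with the submerged libraries lower and no call (log2 change -0.48, limma adjusted p = 0.0597). PFK3 fell in wild type from 23.2 ± 2.33 to 13.4 ± 1.04 TPM (log2 change -0.75, limma adjusted p = 0.00578), though not after median centring (-0.29, adjusted p = 0.134). It rose in ein3eil1 from 39.6 ± 6.07 to 83.2 ± 13.7 TPM (log2 change 1.05, limma adjusted p = 0.000361). The plastid isoform PFK4 fell in all 3 lines, with log2 changes of -1.01, -1.02 and -1.32 in wild type, phyA-211 and ein3eil1. PFK5, also in the plastid, fell in wild type (-1.79) and ein3eil1 (-0.99) and was not called in phyA-211 (-0.32).

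PFP catalyses the same conversion with pyrophosphate in place of ATP, and in both directions; AT1G20950 and AT1G76550 encode its alpha subunit, and AT1G12000 and MEE51 (AT4G04040) its beta subunit. The members of each subunit pair differed. AT1G20950 stood at 23.6, 17.4 and 19.3 TPM in air and at 4.92, 3.75 and 2.81 TPM after submergence in ein3eil1, with no overlap (log2 change -2.14, limma adjusted p = 2.43e-06). It fell as well in wild type (log2 change -1.93, limma adjusted p = 9.29e-06) and phyA-211 (log2 change -1.08, limma adjusted p = 0.00177). AT1G76550 stood at 16.1, 12 and 12.1 TPM in air and at 27, 29.6 and 21.7 TPM after submergence in ein3eil1 and rose (log2 change 0.92, limma adjusted p = 0.00797), each submerged library above each air library. In wild type it stood at 7.57, 5.08 and 5.85 TPM in air and at 3.29, 2.18 and 3.11 TPM after submergence. That fall (log2 change -0.89, limma adjusted p = 0.0111) was not called after median centring (-0.43, adjusted p = 0.0728), without wild-type air replicate 1 (-0.75, adjusted p = 0.053) or without submerged replicate 2 (-0.76, adjusted p = 0.0519). AT1G12000 fell in all 3 lines, with log2 changes of -1.90, -0.86 and -1.90. MEE51, with the highest mean of the step, stood at 33.9, 30.04 and 30.1 TPM in air and at 26.5, 25.3 and 23.6 TPM after submergence in wild type, without a call (log2 change -0.30, limma adjusted p = 0.401). In phyA-211 MEE51 stood at 18.9, 38.9 and 26.5 TPM in air and at 30.1, 65.6 and 85.1 TPM after submergence. The groups overlapped there, and the rise (log2 change 1.01, limma adjusted p = 0.0105) was lost without air replicate 1 (0.76, adjusted p = 0.0563) or submerged replicate 3 (0.70, adjusted p = 0.062). ein3eil1 leaves had MEE51 at 35.4, 31.7 and 29.3 TPM in air and at 31.9, 47.1 and 32.9 TPM after submergence (log2 change 0.19, limma adjusted p = 0.596). After median centring only, MEE51 was called higher there (0.73, limma adjusted p = 0.00996). MEE51 made up 71.4 ± 0.798% of the TPM of the 4 PFP genes in submerged wild type, from 44.6 ± 2.62% in air. In submerged phyA-211 it made up 72 ± 3.31%, from 44.5 ± 2.74% in air. In ein3eil1 the share went from 31.7 ± 1.76% to 48.8 ± 5.38%, beside an AT1G76550 share that went from 13.1 ± 0.795% to 34.3 ± 1.67%.

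Aldolase cleaves fructose 1,6-bisphosphate into a pair of triose phosphates. The cytosolic isoform FBA5 (AT4G26530) had the largest fall of all members in every line. It stood at 179, 137 and 177 TPM in air and at 11.6, 11.2 and 13.1 TPM after submergence in wild type (log2 change -3.67 ± 0.42 SE, limma adjusted p = 2.55e-06). In phyA-211 it stood at 128, 242 and 234 TPM in air and at 9.15, 6.56 and 6.31 TPM after submergence (log2 change -4.56, limma adjusted p = 2.08e-07). FBA5 in ein3eil1 stood at 186, 173 and 230.3 TPM in air and at 34.4, 6.57 and 28.8 TPM after submergence (log2 change -3.29, limma adjusted p = 5.82e-06). No submerged library reached any air library of its line. FBA2 (AT4G38970), a plastid isoform with the highest mean TPM of all members, stood at 1491, 1257 and 1464 TPM in air and at 517, 515 and 506 TPM after submergence in wild type (log2 change -1.45, limma adjusted p = 0.000226). In phyA-211 FBA2 stood at 770.2, 1840 and 1257 TPM in air and at 425, 627 and 671 TPM after submergence (log2 change -1.10, limma adjusted p = 0.00219). ein3eil1 leaves had FBA2 at 1360, 1444 and 1360 TPM in air and at 902, 545 and 667 TPM after submergence (log2 change -1.01, limma adjusted p = 0.00325), a fall that was lost after median centring (-0.47, adjusted p = 0.12). FBA2 was lower after submergence in each line, and the plastid isoform FBA1 fell with it (-1.31, -1.47 and -1.70 in wild type, phyA-211 and ein3eil1). Of the 4 leaf mesophyll markers 2 fell in wild type, 4 in phyA-211 and 2 in ein3eil1, against 38.0%, 23.9% and 47.3% of all tested genes. In that order of lines the log2 changes were -2.36, -1.63 and -1.86 for RCA, which encodes Rubisco activase and was called in all 3, and -1.54, -2.07 and -0.34 for CA1, not called in ein3eil1. They were 0.18, -0.89 and -0.65 for CAB1, not called in wild type, and 0.08, -1.04 and -0.49 for RBCS1A, called in phyA-211 only. The falls of CA1 in wild type and of CAB1 in ein3eil1 were not called after median centring, nor that of CAB1 in phyA-211 after quantile normalization. The third plastid aldolase, PDE345 (AT2G01140), was called on the deposited values in phyA-211 only, where it rose with overlapping groups (log2 change 0.85, limma adjusted p = 0.00632). It was called lower in ein3eil1 after quantile normalization (-0.54, limma adjusted p = 0.0445).

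The remaining cytosolic aldolases split again. FBA7 (AT4G26520) stood at 6.18, 13.7 and 13.2 TPM in air and at 1.07, 2.77 and 3.68 TPM after submergence in phyA-211, without overlap (log2 change -1.79, limma adjusted p = 0.000255), and fell also in wild type (-1.65) and ein3eil1 (-1.58). FBA6 rose in all 3 lines: from 131 ± 7.15 to 209.6 ± 11.1 TPM in wild type (log2 change 0.68, limma adjusted p = 0.00597), from 113 ± 11.2 to 422 ± 92.5 TPM in phyA-211 (log2 change 1.87, limma adjusted p = 5.53e-07) and from 109.9 ± 11.1 to 306 ± 75.4 TPM in ein3eil1 (log2 change 1.44, limma adjusted p = 7.61e-06). The wild-type rise of FBA6 was not called after quantile normalization. FBA8 (AT3G52930) stood at 111, 97.7 and 93.5 TPM in air and at 50.8, 46.7 and 50.9 TPM after submergence in wild type and fell (log2 change -1.01, limma adjusted p = 0.00114). In phyA-211 it stood at 62.3, 104 and 93.8 TPM in air and at 44.2, 76 and 81.3 TPM after submergence, with overlapping groups and no call on the deposited values (log2 change -0.38, limma adjusted p = 0.163). It was called lower there after median centring (-0.45, limma adjusted p = 0.0253) and after quantile normalization (-0.60, limma adjusted p = 0.0256). FBA8 in ein3eil1 stood at 139, 126 and 139 TPM in air and at 419, 437 and 307 TPM after submergence and rose (log2 change 1.51, limma adjusted p = 2.54e-05), all submerged libraries lying above all air libraries. FBA4 rose in phyA-211 (0.47) and ein3eil1 (0.65); the phyA-211 call was lost without air replicate 1 (0.39, adjusted p = 0.051) or submerged replicate 3 (0.36, adjusted p = 0.0597).

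Triose-phosphate isomerase interconverts the products of aldolase. Its cytosolic isoform TPI (AT3G55440) stood at 383, 351 and 428 TPM in air and at 193, 199.9 and 194 TPM after submergence in wild type and fell (log2 change -0.98, limma adjusted p = 0.000532). In phyA-211 TPI stood at 257, 454 and 362 TPM in air and at 175, 246 and 266 TPM after submergence, where it was called lower (log2 change -0.63, limma adjusted p = 0.0134) but not without air replicate 2 (-0.43, adjusted p = 0.0761) or submerged replicate 1 (-0.44, adjusted p = 0.0558). ein3eil1 leaves had TPI at 381, 409.9 and 329 TPM in air and at 494, 402 and 427 TPM after submergence, with overlapping groups and no call on the deposited values (log2 change 0.24, limma adjusted p = 0.289). After median centring TPI was called higher there (0.78, limma adjusted p = 0.00149). The plastid isoform TIM was called in no line on the deposited values, with changes of -0.36, -0.34 and -0.18.

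GAPDH oxidizes glyceraldehyde 3-phosphate and yields NADH, and the cytosolic pair GAPC1 (AT3G04120) and GAPC2 (AT1G13440) carried most of its RNA. GAPC1 stood at 485, 437 and 469 TPM in air and at 96.4, 85.6 and 99.2 TPM after submergence in wild type, a fall with no overlap (log2 change -2.30 ± 0.24 SE, limma adjusted p = 1.14e-06). GAPC1 in phyA-211 stood at 281, 433 and 366 TPM in air and at 89.8, 169.7 and 193 TPM after submergence and also fell (log2 change -1.30, limma adjusted p = 0.000307). GAPC1 in ein3eil1 stood at 446, 430.3 and 392 TPM in air and at 1161, 1338 and 848 TPM after submergence and rose (log2 change 1.38, limma adjusted p = 0.000143). The 3 submerged ein3eil1 libraries had the highest GAPC1 of the series, above every air library. GAPC2 stood at 545, 494 and 494 TPM in air and at 583, 563 and 596 TPM after submergence in wild type, without a call (log2 change 0.19, limma adjusted p = 0.399). In phyA-211 GAPC2 stood at 364, 625 and 445 TPM in air and at 939.7, 1218 and 1271 TPM after submergence and rose (log2 change 1.28, limma adjusted p = 2.44e-05). ein3eil1 leaves had GAPC2 at 649, 608 and 574 TPM in air and at 812, 705 and 586 TPM after submergence (log2 change 0.19, limma adjusted p = 0.381). After median centring only, GAPC2 was called higher there (0.72, limma adjusted p = 0.0024). The groups of GAPC2 were apart in phyA-211 and in wild type, with the submerged libraries higher, and overlapped in ein3eil1. In wild type GAPC2 was called higher after median centring (0.65, limma adjusted p = 0.00532) but not after quantile normalization (-0.12, limma adjusted p = 0.656). The transcripts of GAPC1 and GAPC2 shared 0.24% and 0.23% of their 50-base words with those of other genes.

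GAPCP-1 and GAPCP-2 encode the plastid GAPDH of glycolysis, and ALDH11A3 (AT2G24270) encodes the cytosolic non-phosphorylating enzyme, which bypasses the ATP-forming step and yields NADPH. GAPCP-2 (AT1G16300) stood at 1.32, 2.65 and 2.47 TPM in air and at 9.31, 9.21 and 8.12 TPM after submergence in wild type (log2 change 1.68, limma adjusted p = 6.24e-07). GAPCP-2 in phyA-211 stood at 2, 2.14 and 2.33 TPM in air and at 12.9, 15.2 and 16.5 TPM after submergence (log2 change 2.33, limma adjusted p = 1.44e-08). It rose in ein3eil1 as well (log2 change 1.16, limma adjusted p = 2.14e-05), from 3.97 ± 0.341 to 10.1 ± 0.784 TPM, so this low plastid gene rose in all 3 lines, with no overlap. GAPCP-1 fell in wild type (-1.11) and ein3eil1 (-1.69) and was not called in phyA-211 (-0.29). ALDH11A3 stood at 192, 159.6 and 226 TPM in air and at 64.2, 62.7 and 68.1 TPM after submergence in wild type (log2 change -1.54, limma adjusted p = 1.45e-06). ALDH11A3 in phyA-211 stood at 179, 236 and 233 TPM in air and at 41.1, 38.8 and 43.8 TPM after submergence (log2 change -2.35, limma adjusted p = 1.14e-08). It fell in ein3eil1 too (log2 change -1.94, limma adjusted p = 9.12e-08), and the submerged libraries were the lower ones in each line.

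Phosphoglycerate kinase forms the first ATP gained in the pathway. PGK1 (AT3G12780), a plastid isoform, stood at 767, 573 and 606 TPM in air and at 275, 274 and 278 TPM after submergence in wild type (log2 change -1.22, limma adjusted p = 0.00677). In phyA-211 PGK1 stood at 306, 814 and 554 TPM in air and at 199, 403 and 445 TPM after submergence, with overlap and no call (log2 change -0.65, limma adjusted p = 0.127). ein3eil1 leaves had PGK1 at 569, 561 and 562 TPM in air and at 391, 188 and 216 TPM after submergence (log2 change -1.16, limma adjusted p = 0.00771). The falls of PGK1 in wild type and ein3eil1 were not called after median centring, nor were those of the plastid isoform AT1G56190 (-0.82 and -1.05). That of AT1G56190 in wild type was also lost without air replicate 1 (-0.78, adjusted p = 0.051). The cytosolic isoform PGK (AT1G79550) fell in all 3 lines, most in wild type, from 138 ± 19.1 to 28 ± 0.962 TPM (log2 change -2.26, limma adjusted p = 2.43e-06). Its changes in phyA-211 and ein3eil1 were -0.96 and -0.95, the latter not called after median centring.

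Phosphoglycerate mutase moves the phosphate group within its substrate, and enolase then turns the product into phosphoenolpyruvate. iPGAM2 (AT3G08590) stood at 64.5, 43.3 and 58.2 TPM in air and at 8.79, 9.76 and 10.6 TPM after submergence in wild type and fell (log2 change -2.38 ± 0.36 SE, limma adjusted p = 4.41e-05). iPGAM2 in phyA-211 stood at 38.9, 77 and 58.9 TPM in air and at 11.1, 21.8 and 27.9 TPM after submergence and fell (log2 change -1.52, limma adjusted p = 0.00223). iPGAM2 in ein3eil1 stood at 99.8, 94 and 85.6 TPM in air and at 172, 380.01 and 131 TPM after submergence and rose (log2 change 1.13, limma adjusted p = 0.0119). Submerged ein3eil1 replicate 2 was far above the other 2 libraries of its group, all 3 were above the air libraries, and the rise was not called without that library (0.68, adjusted p = 0.0771). iPGAM1 (AT1G09780) was called on the deposited values in phyA-211 only, where it went from 39.4 ± 12.9 to 89 ± 23.7 TPM (log2 change 1.17, limma adjusted p = 0.000355). The iPGAM1 changes in wild type and ein3eil1 were -0.22 and 0.14, and it was called higher in ein3eil1 after median centring (0.67, limma adjusted p = 0.00355). Of the 50-base words of its transcript 10.3% occur in other genes, most in AT1G09770. LOS2 (AT2G36530), the cytosolic enolase, stood at 293, 255 and 276 TPM in air and at 144, 146 and 142 TPM after submergence in wild type and fell (log2 change -0.93, limma adjusted p = 0.00265). In phyA-211 LOS2 stood at 172, 289 and 251 TPM in air and at 166, 282 and 305 TPM after submergence (log2 change 0.06, limma adjusted p = 0.838). ein3eil1 leaves had LOS2 at 382, 394 and 302 TPM in air and at 636, 760.2 and 524 TPM after submergence and rose (log2 change 0.82, limma adjusted p = 0.00491), although not after quantile normalization. Wild type and ein3eil1 had groups that did not overlap, in opposite order, and phyA-211 had groups that did. The plastid enolase ENO1 fell in wild type (-1.27) and ein3eil1 (-1.17) and changed by 0.01 in phyA-211.

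Pyruvate kinase closes the pathway with the second ATP-forming reaction. AT2G36580 had the highest mean of its genes and stood at 43.6, 31.8 and 34.6 TPM in air and at 46.2, 48.5 and 47.9 TPM after submergence in wild type, without a call (log2 change 0.38, limma adjusted p = 0.264). AT2G36580 in phyA-211 stood at 16.2, 31.3 and 27.3 TPM in air and at 63.5, 135 and 149 TPM after submergence (log2 change 2.13, limma adjusted p = 1.15e-05). AT2G36580 in ein3eil1 stood at 60.4, 62.2 and 48.4 TPM in air and at 302, 232 and 209 TPM after submergence (log2 change 2.09, limma adjusted p = 1.1e-05). AT2G36580 rose in both mutant lines, in each with all submerged libraries above all air libraries. AT5G56350 stood at 34.8, 26 and 28.1 TPM in air and at 7.98, 7.28 and 7.11 TPM after submergence in wild type and fell (log2 change -1.85, limma adjusted p = 0.00034). In phyA-211 AT5G56350 stood at 12.3, 25.7 and 22.2 TPM in air and at 11.2, 29.3 and 38.6 TPM after submergence, with overlap and no call (log2 change 0.27, limma adjusted p = 0.533). ein3eil1 leaves had AT5G56350 at 54.4, 54.2 and 50.1 TPM in air and at 128, 195 and 107 TPM after submergence and rose (log2 change 1.37, limma adjusted p = 0.00285), so the order of the groups was opposite in wild type and ein3eil1. AT3G52990, the most abundant pyruvate kinase member in air in each line, fell in wild type (-1.48) and ein3eil1 (-1.39) and was not called in phyA-211 on the deposited values (-0.57). In phyA-211 AT3G52990 was called lower after median centring (-0.65, limma adjusted p = 0.00964) and after quantile normalization (-0.77, limma adjusted p = 0.0109). AT5G63680 rose in ein3eil1 only among the calls (log2 change 0.81, limma adjusted p = 0.00491), and AT5G08570 was called in no line on the deposited values. After median centring AT5G08570 was called higher in phyA-211 (0.60, limma adjusted p = 0.0487).

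**Figure D2:**
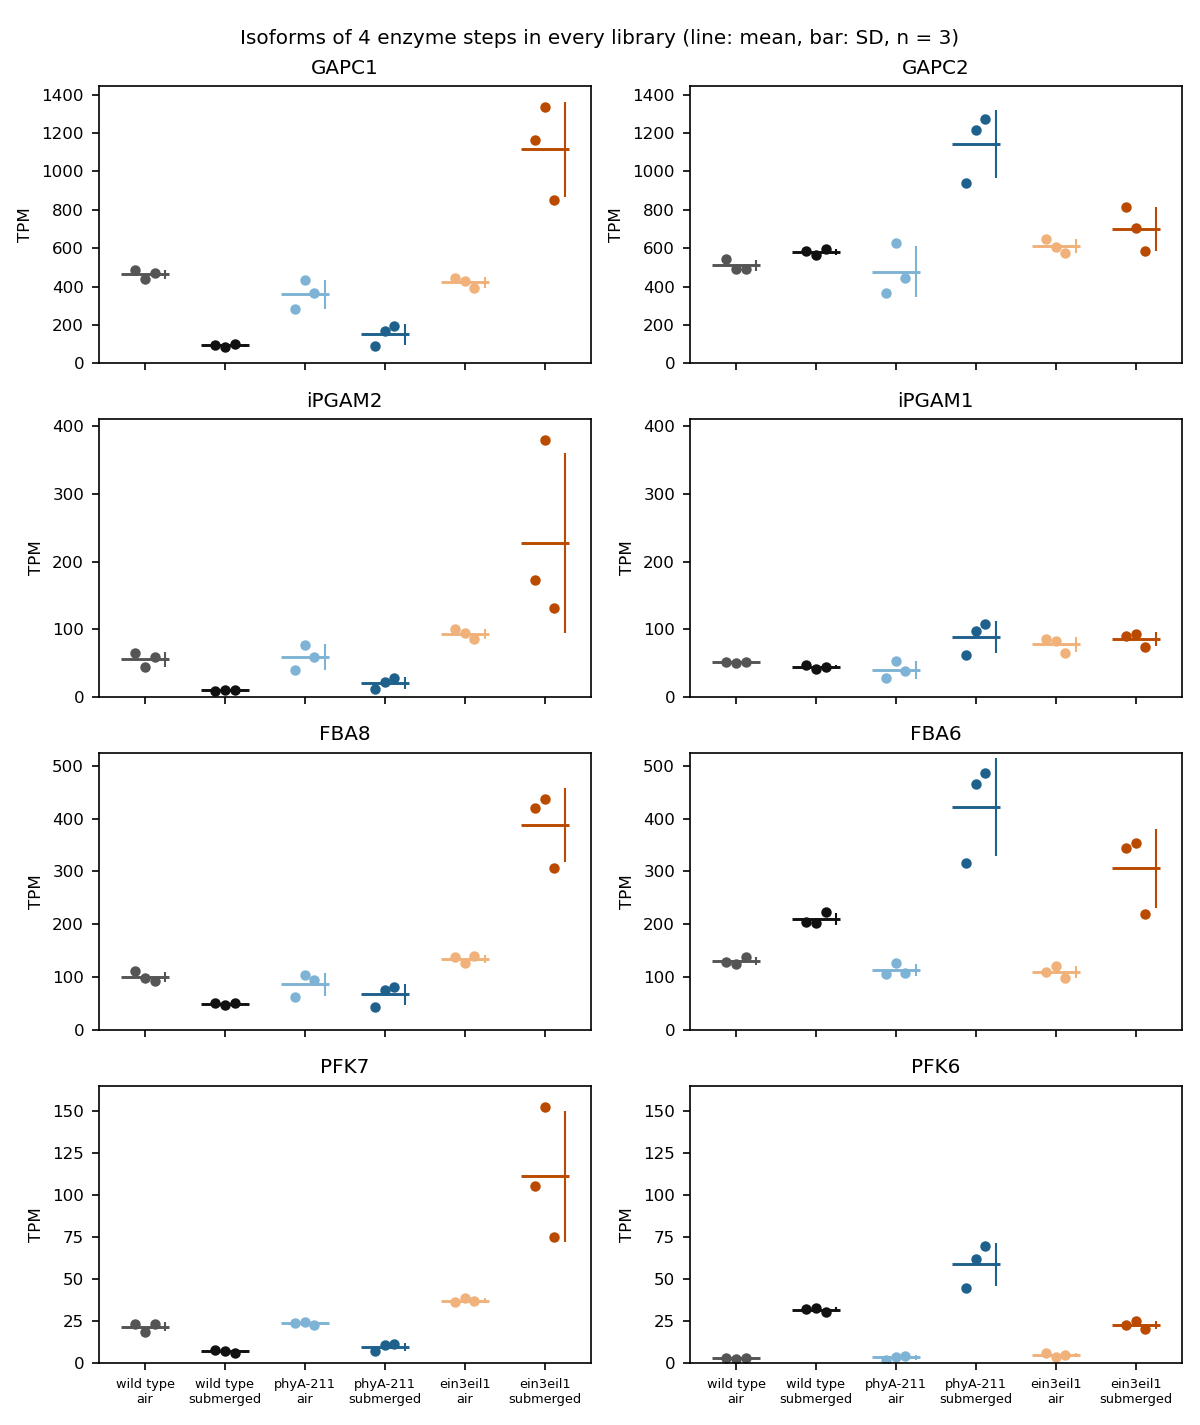
TPM of 4 pairs of isoforms in all 18 libraries (points), with the mean (horizontal line) and SD (vertical bar, n = 3) of each line and condition; both panels of a row share 1 axis. GAPC1, iPGAM2, FBA8 and PFK7 (left) are lower in submerged than in air-grown wild type and highest in submerged ein3eil1, while GAPC2 and FBA6 (right) are highest in submerged phyA-211.

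Read over the 3 lines together, 8 of the 43 tested members (18.6%) fell in wild type and rose in ein3eil1, where 1.68% of all tested genes did. They were GAPC1, iPGAM2, FBA8, PFK7, PFK3, LOS2, AT1G76550 and AT5G56350, and none is a plastid gene. The first 4 and AT5G56350 were so called under all 3 scalings. No member rose in wild type and fell in ein3eil1, against 1.49% of all genes. At the other end, 11 members fell in all 3 lines (HXK1, PGI1, PFK4, AT1G20950, AT1G12000, FBA1, FBA2, FBA5, FBA7, ALDH11A3 and PGK), which is 25.6% of them against 16.4% of all genes, and 8 of the 11 did so under all 3 scalings. PFK6, FBA6 and GAPCP-2 rose in all 3 lines, 6.98% against 8.02%, 2 of them under all 3 scalings. A further 8 members were called higher in phyA-211 and not called in wild type (HXK2, HXK3, MEE51, PDE345, FBA4, GAPC2, iPGAM1 and AT2G36580), 18.6% against 12.4% of all genes. MEE51, PDE345 and iPGAM1 were the 3 of the 8 that did so under all 3 scalings, since the other members were called higher in wild type after median centring.

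Within a step, shares of the summed TPM do not change when a whole library is multiplied by a single factor, though quantile normalization can change them. The shares within several isoform pairs moved on the deposited values, in some of them without a change of the leading isoform. GAPC1 made up 47.6 ± 0.984% of the GAPC pair in wild-type air and 13.9 ± 0.591% after submergence, and 43.2 ± 2.13% and 11.4 ± 2.35% in phyA-211. In ein3eil1 it went from 40.9 ± 0.449% to 61.2 ± 3.75%. The order of the libraries was thus reversed in ein3eil1, with no overlap in any line. The iPGAM2 share of the mutase pair behaved alike: 55.7, 46.7 and 52.9% in wild-type air and 16, 19.3 and 19.7% after submergence. In phyA-211 it was 58.9, 59.3 and 60.6% and 15.2, 18.2 and 20.7%, and in ein3eil1 54.1, 53.3 and 56.9% and 65.7, 80.4 and 64.2%. FBA8 went from 43.5 ± 3.13% to 19.1 ± 0.682% of FBA6 and FBA8 in wild type, from 43 ± 5.07% to 13.6 ± 1.12% in phyA-211, and from 55.1 ± 3.79% to 56.2 ± 1.94% in ein3eil1, where the libraries overlapped. PFK7 went from 87.8 ± 0.57% to 18.2 ± 1.65% of PFK6 and PFK7 in wild type and from 87.3 ± 4.9% to 14.3 ± 0.65% in phyA-211, but kept 82.3 ± 3.6% in submerged ein3eil1 against 88.2 ± 3.26% in air. These pairs were singled out after their values were seen, and with 3 libraries on each side an exact permutation test has a smallest p of 0.1, so the shares are a description.

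The plastid members together made up 53 ± 0.659% of the TPM of all members in wild-type air and 46.2 ± 0.765% after submergence. The share went from 52.4 ± 4.62% to 35 ± 1.01% in phyA-211 and from 48.6 ± 1.15% to 24.9 ± 5.57% in ein3eil1. It was lower in every submerged library than in any air library of the same line. Summed over members outside the plastid, the level was 3146, 2713 and 3051 TPM in wild-type air and 1740, 1706 and 1777 TPM after submergence. In phyA-211 it was 2048, 3317 and 2788 and 2281, 3368 and 3684 TPM, with overlap. In ein3eil1 it was 3713, 3656 and 3300 and 5358, 5807 and 4063 TPM, with the submerged libraries higher.

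**Figure D3:**
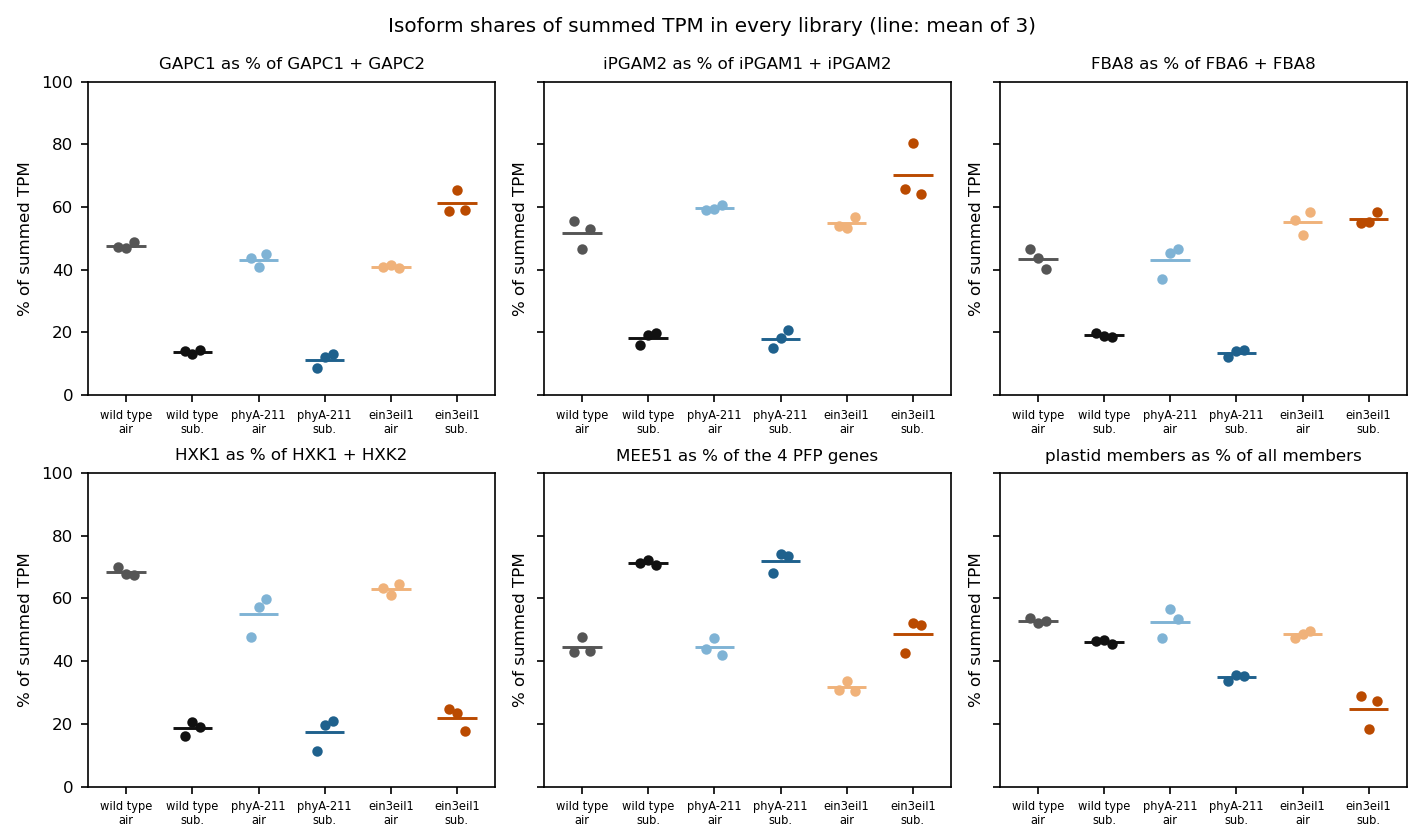
Share of summed TPM taken by 1 isoform of a pair or step, or by the plastid members, in all 18 libraries (points; line: mean of 3), by line and condition. GAPC1 lies at 13.9% on average in submerged wild type, 11.4% in submerged phyA-211 and 61.2% in submerged ein3eil1, while the HXK1 share drops in all 3 lines.

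The difference of the submergence response between ein3eil1 and wild type, tested as an interaction, was called for 16 of the 43 members. It was positive for 14 and negative for 2, where 10.8% and 16.6% of all tested genes were called in these directions. None of the 16 is a plastid gene. GAPC1 had the largest difference (3.67, 95% interval 2.95 to 4.40), then iPGAM2 (3.51, 2.43 to 4.58), AT5G56350 (3.22), PFK7 (2.97) and FBA8 (2.51). AT1G76550, PFK3, LOS2, AT2G36580, PGK, TPI and AT5G63680 had differences between 1.21 and 1.81. FBA6 (0.76) and FBA4 (0.60) were the smallest. The negative members were PFK2 (-1.36, -2.00 to -0.71) and PFK6 (-1.04, -1.75 to -0.33), both rising in wild type. All 16 were called under each scaling, as were 10.1% (positive) and 10.7% (negative) of all genes. Of the 16, 13 were called under every alternative tried, and FBA4, FBA6 and PFK6 lost the call without single libraries of either line. With 1 library left out FBA4 lay between 0.51 and 0.70 (adjusted p up to 0.106), FBA6 between 0.64 and 0.99 (adjusted p up to 0.105) and PFK6 between -1.23 and -0.88 (adjusted p up to 0.08). The counts stayed between 12 and 14 positive and between 1 and 2 negative.

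The same test for phyA-211 was called for 20 members, 19 positive and 1 negative, against 20.4% and 4.19% of all tested genes. This comparison uses the same wild-type libraries as the one for ein3eil1. AT5G56350 (2.12, 1.08 to 3.17), AT2G36580 (1.75, 0.90 to 2.60), PFK5 (1.47) and iPGAM1 (1.39) were the positive members called under all 3 scalings, and under every alternative; 5.33% of all genes were positive under all 3. ALDH11A3 was negative (-0.81, -1.31 to -0.32) under all 3 scalings, as were 3.85% of all genes. Its call was lost without wild-type air replicate 1 or 2, phyA-211 air replicate 3, submerged phyA-211 replicate 2 or 3, or any 1 submerged wild-type library. With 1 library left out its value lay between -0.94 and -0.69, with adjusted p up to 0.0758. After median centring the count of positive members was 5, against 6.00% of all genes, and that of negative ones 1, against 11.7%. On the deposited scale the positive count was 31 without submerged phyA-211 replicate 1, 21 without air replicate 2, and between 6 and 12 without any other single library of the 4 groups, wild-type ones included.

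**Figure D4:**
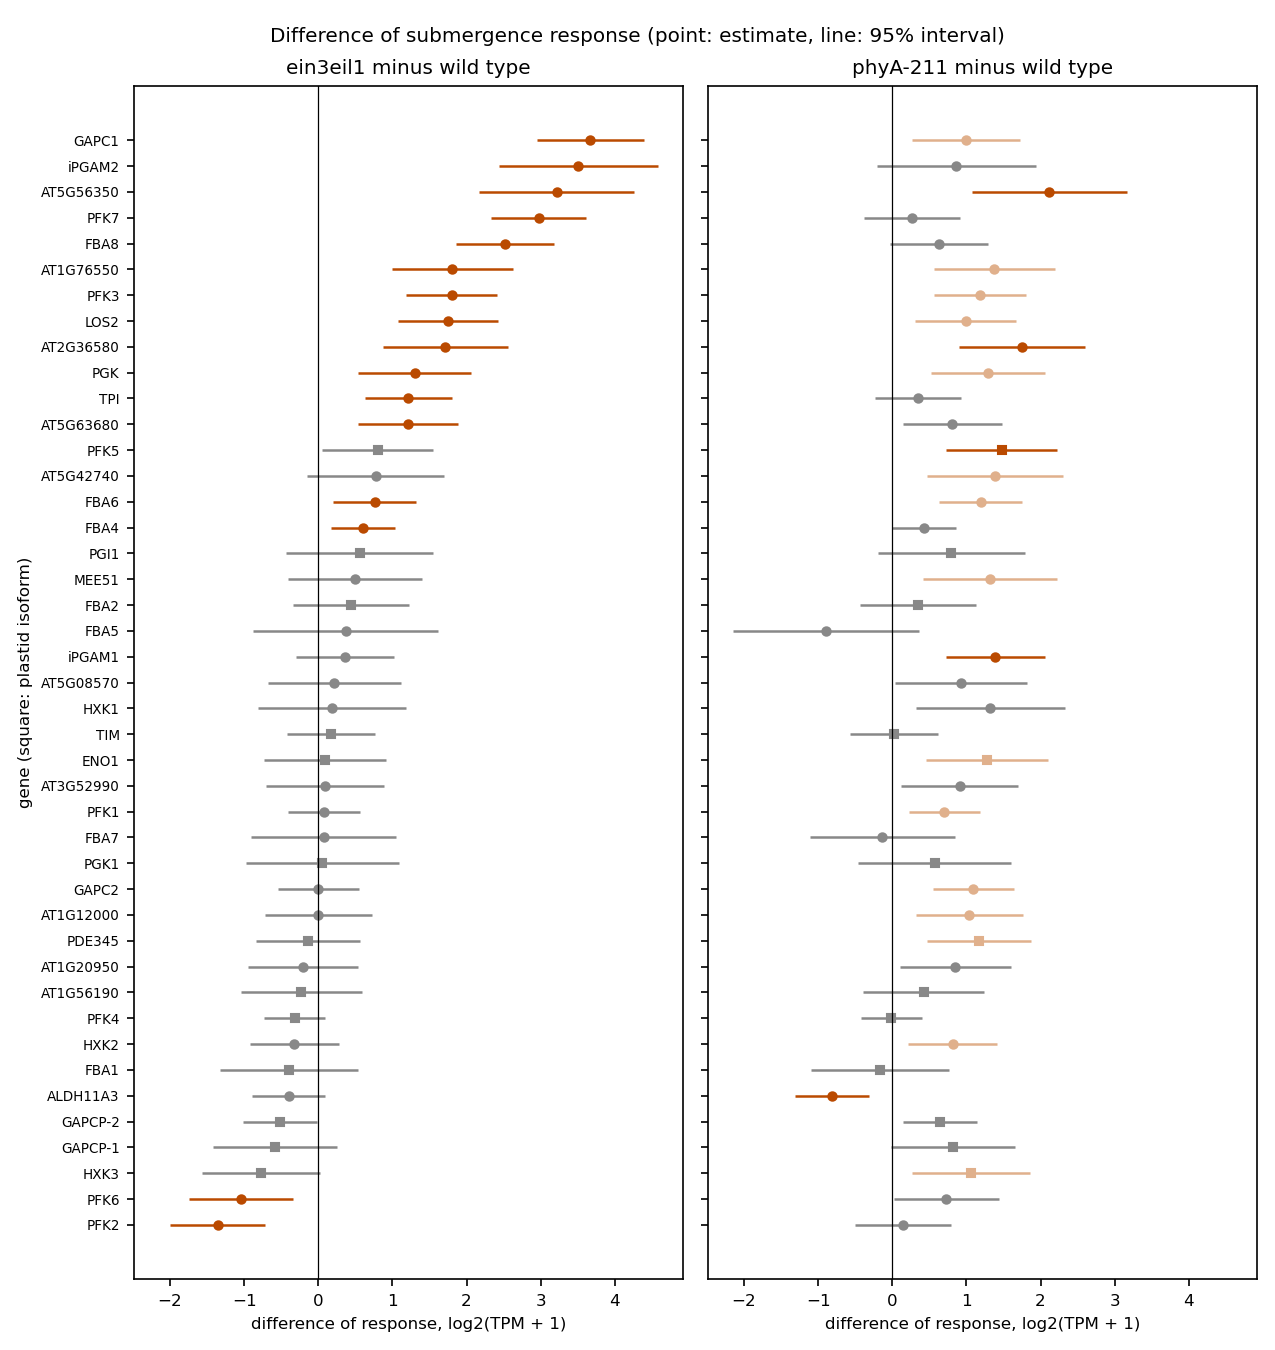
Difference of the submergence response from that of wild type for the 43 tested members in ein3eil1 (left) and phyA-211 (right), on the log2(TPM + 1) scale with 95% intervals; squares are plastid isoforms. Dark orange marks a call under all 3 scalings, pale orange a call on the deposited values that was lost under another scaling, and grey no call; GAPC1 (3.67) and iPGAM2 (3.51) lead in ein3eil1.

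In air no member was called between phyA-211 and wild type by limma, where 1.63% of all genes were called higher and 2.38% lower. Of the members 3 had an unadjusted p under 0.05. After median centring 2 (HXK2 and PFK2) were called higher and none lower, against 1.90% and 2.62% of all genes. Between ein3eil1 and wild type in air 10 members were called higher and none lower, against 25.6% and 2.73% of all genes, with a median of 0.48 beside 0.37 for all genes. The calls depended on the scaling: after median centring 1 was higher and 3 were lower, against 4.05% and 7.64% of all genes. They depended on the libraries and the fit as well: 3 were higher without wild-type replicate 2, 4 without ein3eil1 replicate 1 and 6 without ein3eil1 replicate 2 or 3, against 25 when the compared groups were fitted alone and 26 with group-level weights. GAPCP-1 (AT1G79530) was the member called higher under all 3 scalings and under every alternative, where 3.59% of all genes were higher and 2.51% lower under all 3 scalings. It stood at 27.1, 13.5 and 24.1 TPM in ein3eil1 and at 8.51, 6.35 and 7.61 TPM in wild type, without overlap (log2 change 1.36, limma adjusted p = 0.00409). The GAPCP-1 transcript shares 10.3% of its 50-base words with other genes, most with AT1G79529, and reads there cannot be told apart. AT1G76550, at 16.1, 12 and 12.1 against 7.57, 5.08 and 5.85 TPM, came next (log2 change 1.01, limma adjusted p = 0.0158). It was not called after median centring, without wild-type replicate 2 (0.89, adjusted p = 0.0695) or without ein3eil1 replicate 1 (0.87, adjusted p = 0.0701).

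Under water both mutants held more glycolytic RNA than wild type in many members. In phyA-211 25 members were higher and 1 was lower, against 32.7% and 6.44% of all genes; 12 and 1 were so called under all 3 scalings, against 10.6% and 6.12%. AT5G56350 led, at 11.2, 29.3 and 38.6 TPM against 7.98, 7.28 and 7.11 TPM (log2 change 1.53, limma adjusted p = 0.00537). HXK2 followed, at 32, 42.4 and 54.7 against 17, 14.6 and 17.1 TPM (log2 change 1.32, limma adjusted p = 0.000445). ALDH11A3 was the lower one, at 41.1, 38.8 and 43.8 against 64.2, 62.7 and 68.1 TPM (log2 change -0.65, limma adjusted p = 0.00936), and for each of these 3 genes the groups did not overlap. The count of higher members was 32 without phyA-211 replicate 1, 11 without replicate 2 and 9 without replicate 3.

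In submerged ein3eil1 25 members were higher than in submerged wild type and 1 was lower, against 28.5% and 16.0% of all genes; 16 and 1 were so called under all 3 scalings, against 18.2% and 16.0%. iPGAM2 led, at 172, 380.01 and 131 TPM against 8.79, 9.76 and 10.6 TPM (log2 change 4.27, limma adjusted p = 1.72e-07). AT5G56350 followed, at 128, 195 and 107 against 7.98, 7.28 and 7.11 TPM (log2 change 4.05, limma adjusted p = 2.25e-07). PFK2 was the lower one, at 4.82, 4.04 and 4.78 against 8.25, 7.7 and 10.5 TPM (log2 change -0.82, limma adjusted p = 0.00598). In none of the 3 did a library of one group reach those of the other.

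The routes into and out of glycolysis were read from lists of sugar entry and fermentation genes. Fermentation turns pyruvate into ethanol or lactate and gives back the NAD+ that GAPDH needs. Of its 4 genes 3 rose and 1 fell in wild type, 4 rose in phyA-211, and 3 rose and none fell in ein3eil1. Of all tested genes 18.9% rose and 38.0% fell in wild type, 27.3% and 23.9% in phyA-211, and 17.0% and 47.3% in ein3eil1. ADH1, alcohol dehydrogenase, rose in all 3 lines (7.06, 8.40 and 6.62), and so did the pyruvate decarboxylase gene AT4G33070 (5.64, 8.60 and 6.64). PDC2, a further pyruvate decarboxylase, fell in wild type (log2 change -1.61, limma adjusted p = 0.0102) and rose in phyA-211 with overlapping groups (log2 change 1.50, limma adjusted p = 0.0169). Of the 5 sugar entry genes 1 rose and 3 fell in wild type, 2 rose and 1 fell in phyA-211, and 2 rose and 3 fell in ein3eil1, beside the same shares of all genes. SUS1, a sucrose synthase that cleaves sucrose without spending ATP, rose in each line (2.79, 5.50 and 2.59). PGM3, a cytosolic phosphoglucomutase, fell in each (-2.11, -1.23 and -2.21), with overlapping groups in phyA-211.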

How the data were processed

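Polyadenylated leaf RNA was sequenced, and a single deposited table gives each gene's value in all 18 libraries. The unit is TPM made by the authors, inferred from the deposited values, which have decimals and sum to between 996105 and 998620 per library; no file header names it. The submitters' processing notes list fastp, cutadapt, HISAT2 and DESeq2 and the build TAIR10; neither a version nor the role of any is given. TPM keeps no read depth, so the depth is unknown.

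Members were found by locus. Gene symbols are those of the file or of RefSeq for TAIR10.1, not the authors' build, used here for names and for 50-base words shared between transcripts; no coordinates or sequences are printed, and the planned search for promoter motifs was not run. Tests covered the 20302 of 32833 genes that reached 1 TPM in 3 or more libraries, run on log2(TPM + 1) with limma-trend, robust and two-sided (limma 3.58.1, R 4.3.3). The fit took a mean per group, all 18 libraries and no block, with Benjamini-Hochberg adjustment over all tested genes and a threshold of 0.05. There were 9 comparisons: the submergence response of the 3 lines, both mutants against wild type in air and under water, and the 2 differences of response from wild type. The script was tested on simulated data.

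Values in every library are given for the member with the highest mean in each step, the 3 largest called rises and falls in each submergence comparison, and the 2 largest called differences in each direction between lines; other genes shown this way, and all isoform pairs, were added after their values were seen. Of other pathway lists at most 3 called genes per submergence comparison are named, except that PKP-ALPHA and PKP-BETA1 were added after their values were seen. Alternatives were a pseudocount of 0.1, no filter, median centring, quantile normalization, the libraries of the compared groups alone, group-level weights, a replicate block and leaving out each library. The members, lists, tests and alternatives were chosen with earlier results of these data known.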

Additional observations from a re-analysis of the deposited data

Results flagged for a closer look

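The response to submergence differed between a mutant line and wild type, by limma's interaction term at an adjusted p under 0.05, for 36 pairs of a gene and a line; values are differences of response on the log2(TPM + 1) scale.

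In ein3eil1 the differences for the cytosolic enzymes of the lower pathway were 3.67 for GAPC1, 3.51 for iPGAM2, 1.75 for LOS2, 1.30 for PGK and 1.22 for TPI. Those of the pyruvate kinases were 3.22 for AT5G56350, 1.71 for AT2G36580 and 1.21 for AT5G63680. Those of the aldolases were 2.51 for FBA8, 0.76 for FBA6 and 0.60 for FBA4. Among phosphofructokinases they were 2.97 for PFK7, 1.81 for the PFP gene AT1G76550, 1.80 for PFK3, -1.04 for PFK6 and -1.36 for PFK2.

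In phyA-211 the pyruvate kinases AT5G56350 (2.12) and AT2G36580 (1.75), the plastid PFK5 (1.47) and iPGAM1 (1.39) stood first. They were followed by AT5G42740 (1.39), AT1G76550 (1.38), MEE51 (1.31), PGK (1.29), ENO1 (1.28), FBA6 (1.19), PFK3 (1.18), PDE345 (1.17), GAPC2 (1.09), HXK3 (1.06), AT1G12000 (1.04), GAPC1 (1.00), LOS2 (0.99), HXK2 (0.81) and PFK1 (0.70). These 15 were not called under every scaling. ALDH11A3 was at -0.81.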

How the results depend on the processing

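None of the 189 called values changed direction under any alternative; signs of changes without a call were not stable to the scaling. Median centring gave 9 rises in wild type, 2 higher members in phyA-211 air, 1 higher and 3 lower in ein3eil1 air, 12 and 2 in submerged phyA-211 against wild type, 16 and 4 in submerged ein3eil1 against wild type, and 5 positive differences for phyA-211. Quantile normalization gave 2 higher members in phyA-211 air, 2 in ein3eil1 air, 14 in submerged phyA-211, 16 higher and 3 lower in submerged ein3eil1, and 7 positive differences for phyA-211. Fitting the compared groups alone gave 7 rises in wild type, 25 higher members in ein3eil1 air, 6 in submerged phyA-211, 2 lower in submerged ein3eil1 and 8 positive differences for phyA-211. Group-level weights gave 26 higher members in ein3eil1 air and 2 lower in submerged ein3eil1, and no filter gave 11 positive differences for phyA-211. The cause of these shifts was not tested.

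With 1 library left out, rises and falls were 4 to 4 and 26 to 28 in wild type, 10 to 18 and 13 to 20 in phyA-211, and 13 to 14 and 18 to 19 in ein3eil1. Against wild type, 3 to 8 members were higher in ein3eil1 air (3 without wild-type replicate 2, 4 without ein3eil1 replicate 1), 9 to 32 in submerged phyA-211 and 17 to 24 in submerged ein3eil1, with 1 lower in each submerged comparison. Positive differences were 6 to 31 for phyA-211, with 0 to 1 negative, and 12 to 14 for ein3eil1, with 1 to 2 negative.

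In no line did every same-numbered pair correlate above 0.1, so the numbers were not taken to pair the libraries. Correlations of same-numbered deviations ran from -0.04 to 0.02 in wild type, 0.09 to 0.44 in phyA-211 and 0.02 to 0.09 in ein3eil1. In phyA-211 and in ein3eil1 replicates 1 and 2, but not 3, correlated best with their own number, and in wild type only replicate 2 did. A replicate block gave 8 higher members in ein3eil1 air, 22 in submerged ein3eil1 against wild type, 16 positive differences for phyA-211 and 12 for ein3eil1, with every other count as without it. Of the called values 179 stayed called under the block, 187 with a pseudocount of 0.1 and 135 after median centring. TPM without counts sets no limit of detection for low members such as AT4G26390.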

Other observations

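Further isoforms of the same enzymes, outside the 44, were tested for 10 of 14 genes. In wild type 3 fell and none rose, in phyA-211 4 fell and 2 rose, and in ein3eil1 7 fell and 2 rose. Of all tested genes 38.0% fell and 18.9% rose in wild type, 23.9% and 27.3% in phyA-211, and 47.3% and 17.0% in ein3eil1. GAPA-2, a photosynthetic GAPDH subunit of the chloroplast, fell in all 3 lines (-2.39, -2.32 and -1.60), as did the plastid pyruvate kinase gene PKp3 (-1.77, -1.15 and -1.67). AT3G04050 rose in ein3eil1 (log2 change 1.59, limma adjusted p = 0.000634) and was not called in the other lines on the deposited values. The plastid pyruvate kinase subunit genes PKP-ALPHA and PKP-BETA1 fell in ein3eil1, from 97.9 ± 16.1 to 39.9 ± 7.01 TPM and from 63 ± 10.9 to 27.7 ± 6.39 TPM. In wild type they stood at 59.99 ± 11.8 and 57.7 ± 2.94 TPM, and at 35.8 ± 7.85 and 32.4 ± 1.37 TPM, and their differences of response between ein3eil1 and wild type were -1.23 (adjusted p = 0.0494) and -1.05 (adjusted p = 0.0428). These genes were singled out after their values were seen.

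Of 8 tested genes of the reverse direction and of bypass reactions, 5 fell and 1 rose in wild type, 4 fell and 1 rose in phyA-211, and 6 fell and 1 rose in ein3eil1, beside the shares of all genes given above. PCK1, phosphoenolpyruvate carboxykinase of gluconeogenesis, was the 1 that rose in each line (3.32, 4.68 and 2.85). It stood at 58.8, 41.8 and 56.2 TPM in air and at 521, 534 and 516 TPM after submergence in wild type, with no overlap. The cytosolic fructose-1,6-bisphosphatase gene FBP fell in each line (-1.96, -2.08 and -1.86), and so did PPC2, which encodes a phosphoenolpyruvate carboxylase (-3.75, -2.48 and -2.29).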
